A study of Mus musculus with 29 samples.

Results

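The sirtuins Sirt1 to Sirt7 were followed through RNA and H3K9ac libraries of E16.5 mouse embryonic cortex. Members were taken by gene symbol, matched to the Ensembl identifiers of the count files, and all 7 were found among 48709 identifiers. The study sorted nuclei by FACS into a Tbr2+ and a Tbr2- population after the cortex had been given vehicle or TSA, an inhibitor of the zinc-dependent histone deacetylases. RNA was measured in 3 vehicle and 2 TSA libraries of each population. H3K9ac, acetylation of lysine 9 of histone H3, was measured in 3 libraries of Tbr2+ vehicle and in 4 of each other group. The labels give the population in place of a genotype and name no strain, dose or treatment time, and no animal for any library, so the p-values below measure the spread between libraries, which may be technical. Per the labels RNA was isolated with TRIZOL from whole tissue, which differs from the series' account of sorted nuclei, and the difference could not be settled. Eomes, the gene of Tbr2, checked the sort: it stood at 443 ± 93.3 CPM (counts scaled to the TMM-normalized library size, SD, n = 3) in Tbr2+ and 18.03 ± 4.04 CPM (n = 3) in Tbr2- vehicle libraries.

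Sirtuins remove acetyl and longer acyl groups from lysines and use up NAD in doing so, whereas the classical deacetylases use a bound zinc ion. TSA occupies that zinc site, and the sirtuins, which use NAD instead, are classed as a family as insensitive to TSA. Whether TSA acts on single members was not tested here. Sirt1, Sirt6 and Sirt7 are mainly nuclear, with Sirt7 in the nucleolus; Sirt2 is mainly cytoplasmic and deacetylates tubulin; Sirt3, Sirt4 and Sirt5 are mitochondrial. Sirt6 is itself known to remove acetyl groups from lysine 9 of histone H3. In neural progenitors Sirt1 is known as a partner of Bcl6 in silencing Notch targets.

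The promoters of 4 members are shown because the RNA values turned on these genes: Sirt1 and Sirt4 in the comparison of populations, and Sirt2, Sirt3 and Sirt4 under TSA. Each run is 300 bases, 250 before the RefSeq start and 50 from it on, on the strand of the gene, from the RefSeq table of build GRCm38.p6. Capitals mark matches, on either strand, to motifs that were picked after the sequences had been read: the E-box CACGTG, the GC box GGGCGG, the ETS core CCGGAAG, an NRF1 motif GCGCATGCG, a ZNF143 motif ACTACAANT, the CCAAT box CCAAT and the TATA box TATAAA.
Sirt1, chr10:63338986-63339285, minus strand: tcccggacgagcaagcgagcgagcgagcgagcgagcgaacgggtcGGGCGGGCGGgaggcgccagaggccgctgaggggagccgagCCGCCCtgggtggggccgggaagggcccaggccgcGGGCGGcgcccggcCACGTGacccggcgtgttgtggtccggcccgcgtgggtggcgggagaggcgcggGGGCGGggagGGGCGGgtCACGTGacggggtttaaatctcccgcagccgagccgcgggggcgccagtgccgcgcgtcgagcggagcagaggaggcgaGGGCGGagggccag
Sirt2, chr7:28766502-28766801, plus strand: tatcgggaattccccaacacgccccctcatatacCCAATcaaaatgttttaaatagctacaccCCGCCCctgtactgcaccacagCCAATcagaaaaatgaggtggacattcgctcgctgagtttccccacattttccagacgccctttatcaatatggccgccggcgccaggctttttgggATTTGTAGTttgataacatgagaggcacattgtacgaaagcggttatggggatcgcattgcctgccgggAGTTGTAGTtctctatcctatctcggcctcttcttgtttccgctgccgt
Sirt3, outer of 2 starts, chr7:140882260-140882559, minus strand: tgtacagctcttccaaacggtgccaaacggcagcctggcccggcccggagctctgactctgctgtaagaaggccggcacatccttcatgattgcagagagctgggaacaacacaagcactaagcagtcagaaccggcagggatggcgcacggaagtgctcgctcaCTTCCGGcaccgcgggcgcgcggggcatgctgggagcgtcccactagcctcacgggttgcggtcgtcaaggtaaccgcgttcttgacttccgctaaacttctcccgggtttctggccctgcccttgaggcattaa
Sirt4, chr5:115484248-115484547, minus strand: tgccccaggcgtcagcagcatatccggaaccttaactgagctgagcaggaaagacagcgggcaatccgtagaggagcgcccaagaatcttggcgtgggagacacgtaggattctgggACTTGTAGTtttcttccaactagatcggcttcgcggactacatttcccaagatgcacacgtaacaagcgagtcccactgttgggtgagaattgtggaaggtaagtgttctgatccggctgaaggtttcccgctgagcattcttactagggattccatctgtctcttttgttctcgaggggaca

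All 7 members had an entry in the promoter table, with 2 starts for Sirt3 and for Sirt6. The Sirt1 window held 79.0% G and C and 47 CpG, against medians of 52.7% and 7 CpG over 32851 windows. It carried the E-box at 2 places, from -115 to -110 and from -43 to -38, counted from the start as base 0; 7.15% of all windows held an E-box. It also held 7 GC boxes, of which 2 overlapped, a motif found in 35.7% of windows. The Sirt2 window held 50% G and C. Its ZNF143 motif occurred at 2 places, from -68 to -60 and from 1 to 9, and 1 match lay in the Sirt4 window, from -133 to -125, while 1.49% of windows held it. An NRF1 motif lay in the Sirt7 window and in the window of the outer Sirt6 start, against 1.75% of windows. The ETS core was present for Sirt3, Sirt6 and Sirt7 (8.86% of windows), CCAAT for Sirt2, Sirt3 and Sirt5 (37.4%), and no member's window held the TATA box letters (13.6%). These matches are descriptions of the letters and not sites of binding.

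Library totals were 18567111 to 26282652 counts, and the lowest count of any member in any library was 391. The members lay among 20078 genes that passed a filter on low counts. A gene is called when its adjusted p is below 0.05 in edgeR's quasi-likelihood test, with Benjamini-Hochberg adjustment over those genes; fold changes are log2 with their standard error. In build GRCm38.p6 the genes span chr10:63319005-63339035 (Sirt1), chr7:28766752-28788665 (Sirt2), chr7:140863663-140882309 (Sirt3), chr5:115478006-115490264 (Sirt4), chr13:43365389-43395203 (Sirt5), chr10:81621787-81627792 (Sirt6) and chr11:120618371-120625014 (Sirt7), with Sirt2 and Sirt5 on the plus strand. Levels of different members are not compared, since CPM are not divided by transcript length. The TruSeq RNA kit named in the labels does not keep strand, so the counts of Sirt2 and Sirt4, which overlap antisense noncoding genes (Gm19897 and Gm42007), and of Sirt3, whose end overlaps the end of Ric8a, are less certain.

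**Figure D1:**
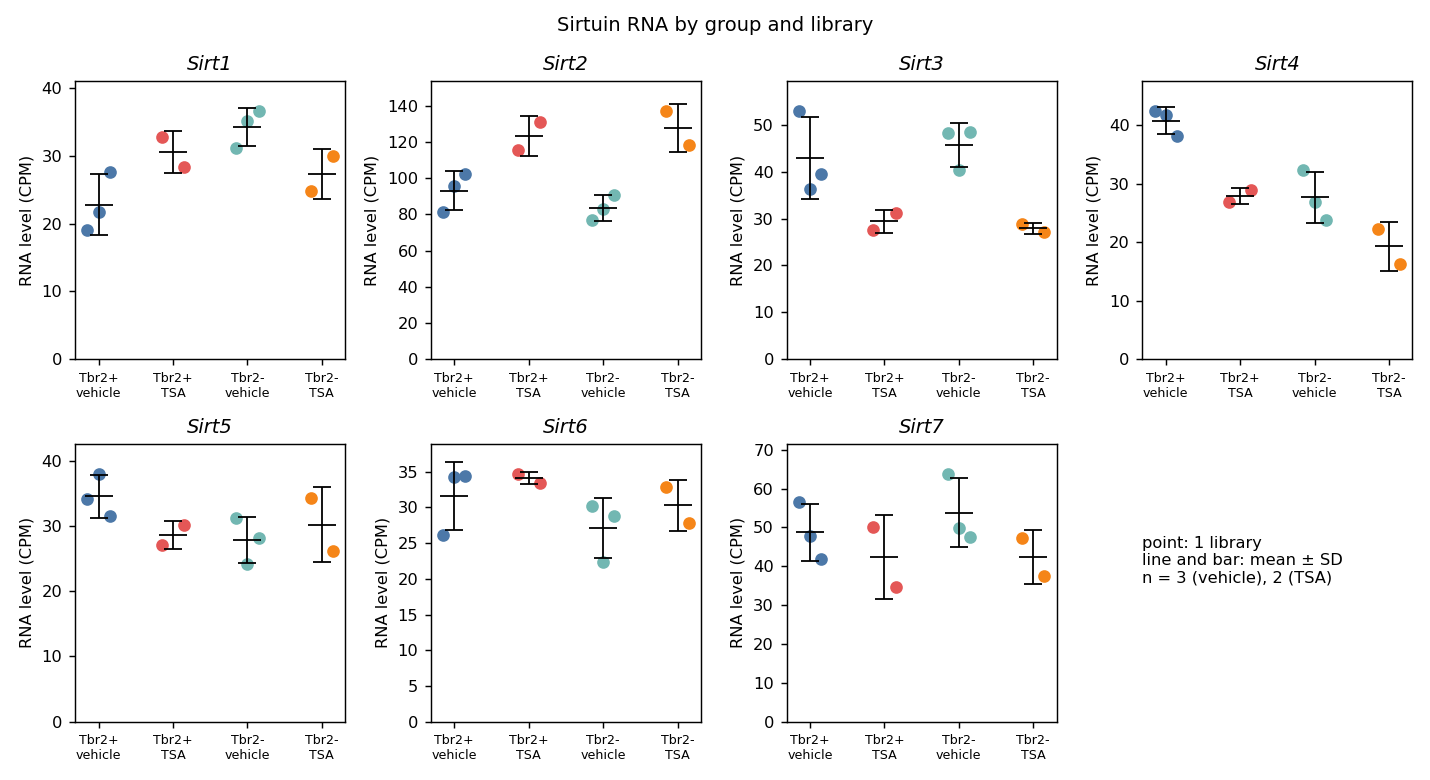
RNA level in CPM of each sirtuin (y axis, from 0) in each library (points) of the 4 groups (x axis), with mean and SD (n = 3 vehicle, 2 TSA). The Sirt2 points of all 4 TSA libraries lie above all 6 vehicle points, and the Sirt3 points of all 4 TSA libraries lie below them.

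The first comparison asked which sirtuins differ between Tbr2+ nuclei, sorted by a marker of basal progenitors, and Tbr2- nuclei in the vehicle cortex. Sirt1 was lower and Sirt4 higher in Tbr2+ nuclei, and the other 5 members were not called. Of all genes tested 21.4% were called, 9.96% higher and 11.5% lower, so the share of members called, 2 of 7, is near the background and is no result about the family.

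Sirt1, the nuclear deacetylase of histones, p53 and FoxO factors, stood at 19.03, 21.8 and 27.7 CPM in the Tbr2+ and at 31.2, 35.1 and 36.7 CPM in the Tbr2- vehicle libraries. The 2 sets did not overlap, which held for 3 members, Sirt1, Sirt4 and Sirt5, and for 39.7% of genes. Sirt1 had a log2 difference, Tbr2+ minus Tbr2-, of -0.59 ± 0.19 (edgeR adjusted p = 0.0451). Sirt4, a mitochondrial sirtuin known to inhibit glutamate dehydrogenase, stood at 42.5, 41.7 and 38.1 CPM in Tbr2+ and at 32.4, 26.8 and 23.8 CPM in Tbr2- libraries. These sets did not overlap either, and the log2 difference was 0.56 ± 0.19 (edgeR adjusted p = 0.0492). Both calls lie close to the threshold. The Sirt1 call was lost when any 1 library other than Tbr2+ vehicle replicate 3 was left out, with adjusted p up to 0.180 without Tbr2+ vehicle replicate 1. The Sirt4 call held without Tbr2- vehicle replicate 1, Tbr2+ TSA replicate 1 or either Tbr2- TSA library, and was lost without each of the other 6, with adjusted p up to 0.147 without Tbr2- vehicle replicate 3. Without the filter on low counts neither was called (0.0879 for Sirt1 and 0.0553 for Sirt4).

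The other members differed by less. Sirt5, the mitochondrial desuccinylase, had 34.5 ± 3.28 CPM in Tbr2+ and 27.9 ± 3.53 CPM in Tbr2- vehicle libraries, a log2 difference of 0.31 with a 95% interval from -0.09 to 0.70. For Sirt2 the interval ran from -0.15 to 0.47, for Sirt3 from -0.48 to 0.30, for Sirt6 from -0.19 to 0.63 and for Sirt7 from -0.57 to 0.28. The intervals of Sirt5 and Sirt6 thus hold differences as large as that of Sirt4, and those of Sirt2, Sirt3 and Sirt7 end short of the differences of the same sign seen for Sirt1 or Sirt4. Cell types also differed between the populations. Higher in Tbr2+ nuclei were 9 of 9 basal progenitor markers, Eomes among them, and 2 of 10 radial glia markers. Lower were 8 of 10 cortical neuron markers and 8 of 8 interneuron markers. Summed cortical neuron markers spanned 3821 to 5496 CPM in Tbr2+ and 7708 to 9907 CPM in Tbr2- vehicle libraries, and no marker of either list was at 0 in any library. Their part in the Sirt1 and Sirt4 differences was not tested. In such pooled nuclei, fewer cells of a type and less RNA per cell cannot be told apart.

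Under TSA the same comparison called none of the 7 members, against 9.32% of genes. An unadjusted p below 0.05 was found for 1 member, Sirt4, and for 23% of genes, and DESeq2 called 0 members. Sirt4 stood at 26.9 and 28.9 CPM in Tbr2+ and at 22.2 and 16.3 CPM in Tbr2- TSA libraries, a log2 difference of 0.53 ± 0.23 (edgeR adjusted p = 0.182). The sets did not overlap, which held for 2 members, Sirt4 and Sirt6, and for 50.9% of genes. The Sirt4 estimate was close to that in vehicle. Sirt1 stood at 32.7 and 28.4 CPM in Tbr2+ and at 24.8 and 30.0 CPM in Tbr2-, sets that overlapped, with a log2 difference of 0.16 ± 0.23 (edgeR adjusted p = 0.765).

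The second comparison asked how the RNA of these genes differed between TSA and vehicle. In Tbr2+ nuclei no member was called, and 0% of genes were; 3 members, Sirt2, Sirt3 and Sirt4, had an unadjusted p below 0.05, as did 15.8% of genes, and DESeq2 called 0 of the 7. In Tbr2- nuclei no member was called either, against 1.18% of genes. The same 3 had an unadjusted p below 0.05, as did 20.1% of genes. There DESeq2 called 2, Sirt2 (DESeq2 adjusted p = 0.00864) and Sirt3 (DESeq2 adjusted p = 0.0161). DESeq2 also called more genes in all than edgeR in both populations, with the counts given at the end. The libraries of TSA and vehicle did not overlap for 5 members in each population, against 33.5% of genes in Tbr2+ and 40.7% in Tbr2-.

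Sirt2, the tubulin deacetylase, stood at 81.4, 95.6 and 102 CPM in vehicle and at 115 and 131 CPM in TSA libraries of Tbr2+ nuclei. In Tbr2- nuclei it stood at 76.8, 83.1 and 90.6 CPM in vehicle and at 137 and 118 CPM in TSA. Every TSA library of either population was above every vehicle library. The log2 difference, TSA minus vehicle, was 0.40 ± 0.16 in Tbr2+ (edgeR adjusted p = 0.239) and 0.61 ± 0.16 in Tbr2- nuclei (edgeR adjusted p = 0.0642).

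Sirt3, the main deacetylase of the mitochondrial matrix, had estimates of the opposite sign. It stood at 53.0, 36.4 and 39.5 CPM in vehicle and at 27.6 and 31.2 CPM in TSA libraries of Tbr2+ nuclei. In Tbr2- nuclei the values were 48.4, 40.3 and 48.4 CPM in vehicle and 28.8 and 27.1 CPM in TSA. All 4 TSA libraries were below all 6 vehicle libraries. The log2 difference was -0.55 ± 0.20 in Tbr2+ (edgeR adjusted p = 0.219) and -0.71 ± 0.21 in Tbr2- nuclei (edgeR adjusted p = 0.0841).

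Sirt4 had negative estimates of like size in both populations. The log2 difference was -0.55 ± 0.21 in Tbr2+ (edgeR adjusted p = 0.233) and -0.52 ± 0.21 in Tbr2- nuclei (edgeR adjusted p = 0.193). By mean level, Tbr2+ vehicle libraries were highest at 40.8 ± 2.32 CPM (SD, n = 3), followed by Tbr2+ TSA at 27.9 ± 1.37 CPM (n = 2), Tbr2- vehicle at 27.7 ± 4.36 CPM (n = 3) and Tbr2- TSA at 19.3 ± 4.15 CPM (n = 2). Only the middle pair of groups overlapped in this order.

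Since the estimates for these 3 genes had the same sign in both populations, the mean of both TSA effects was tested in the same fit, a test added after the values were seen. Sirt2 was higher by 0.51 ± 0.11 (log2, edgeR adjusted p = 0.0157), Sirt3 lower by a log2 difference of -0.63 ± 0.15 (edgeR adjusted p = 0.0186) and Sirt4 lower by -0.53 ± 0.15 (edgeR adjusted p = 0.0390). Of all genes 10.8% were called, 6.39% higher and 4.46% lower. These calls did not hold throughout. Summing the Tbr2+ and Tbr2- libraries of 1 number to 1 sample, which allows for a shared source, gave adjusted p of 0.0590 for Sirt2, 0.0760 for Sirt3 and 0.0978 for Sirt4. Sirt2 was lost only without Tbr2- TSA replicate 1 (0.0913), Sirt3 also without Tbr2- TSA replicate 2 (0.0558) or Tbr2+ TSA replicate 1 (0.0757), and Sirt4 held in only 3 of 10 such fits, with adjusted p up to 0.136. It was lost without Tbr2+ vehicle replicate 1 or 2, Tbr2- vehicle replicate 1 and each of the 4 TSA libraries.

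Other transcripts differed with TSA as well. In the mean of both populations 19 of 20 ribosomal protein genes were higher, with sums of 2431 to 4023 CPM in vehicle and 4848 to 6163 CPM in TSA libraries. Nuclear long noncoding RNAs were lower for 5 of 10, with sums of 9598 to 14881 CPM in vehicle and 6075 to 12278 CPM in TSA libraries. With the noncoding sum as a covariate the estimates were 0.44 for Sirt2, -0.53 for Sirt3 and -0.46 for Sirt4, and none was called (adjusted p 0.317, 0.355 and 0.431), when only 3 genes in all were. Cell type markers differed as well. Called in the mean effect were 3 of 10 cortical neuron, 2 of 8 interneuron and 2 of 10 radial glia markers, all higher. Of 9 basal progenitor markers 1 was called, higher, while 8 had negative estimates, at a median log2 difference of -0.37 over the list. None of 6 oligodendrocyte, 7 microglia, 8 vascular and meningeal or 6 erythroid markers was called. Summed cortical neuron markers spanned 5845 to 6727 CPM in Tbr2+ TSA and 10232 to 11774 CPM in Tbr2- TSA libraries, above the vehicle libraries of each population given above. Summed interneuron markers spanned 652 to 756 CPM in vehicle and 1195 to 1283 CPM in TSA libraries of Tbr2- nuclei, and 103 to 209 and 194 to 212 CPM in those of Tbr2+ nuclei. The part of the ribosomal transcripts and of these cell types in the sirtuin values was not tested.

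Sirt6, Sirt7 and Sirt5 were not called in any of these tests. Sirt6, the chromatin deacetylase, had 31.6 ± 4.73 CPM in vehicle and 34.1 ± 0.897 CPM in TSA libraries of Tbr2+ nuclei, and 27.1 ± 4.15 and 30.3 ± 3.60 CPM in Tbr2- nuclei. Its mean TSA effect was 0.13 on the log2 scale, with a 95% interval from -0.19 to 0.46. Sirt7, the nucleolar member, had 48.7 ± 7.36 and 42.4 ± 10.9 CPM in Tbr2+, and 53.7 ± 8.87 and 42.3 ± 6.93 CPM in Tbr2- nuclei, with a mean effect of -0.27 and an interval from -0.61 to 0.07. Sirt5 had 34.5 ± 3.28 and 28.6 ± 2.15 CPM in Tbr2+, and 27.9 ± 3.53 and 30.2 ± 5.70 CPM in Tbr2- nuclei, with a mean effect of -0.08 and an interval from -0.39 to 0.23. The groups of Sirt5, Sirt6 and Sirt7 each overlapped with the next in order of level.

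The estimates for Sirt1 had opposite signs in the populations. TSA libraries of Tbr2+ nuclei lay above the vehicle ones, at a log2 difference of 0.42 ± 0.21 (edgeR adjusted p = 0.362), and those of Tbr2- nuclei lay below, at -0.33 ± 0.22 (edgeR adjusted p = 0.425). The difference of these effects was 0.75 ± 0.30, with an unadjusted 95% interval from 0.09 to 1.40, and was not called (edgeR adjusted p = 0.895). Of the 7 members 0 were called in this test, as were 0% of genes, 1 member had an unadjusted p below 0.05 beside 5.49% of genes, and DESeq2 called 0 of the 7. The summed level of all 7 sirtuins spanned 282 to 327 CPM over the 10 libraries.

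**Figure D2:**
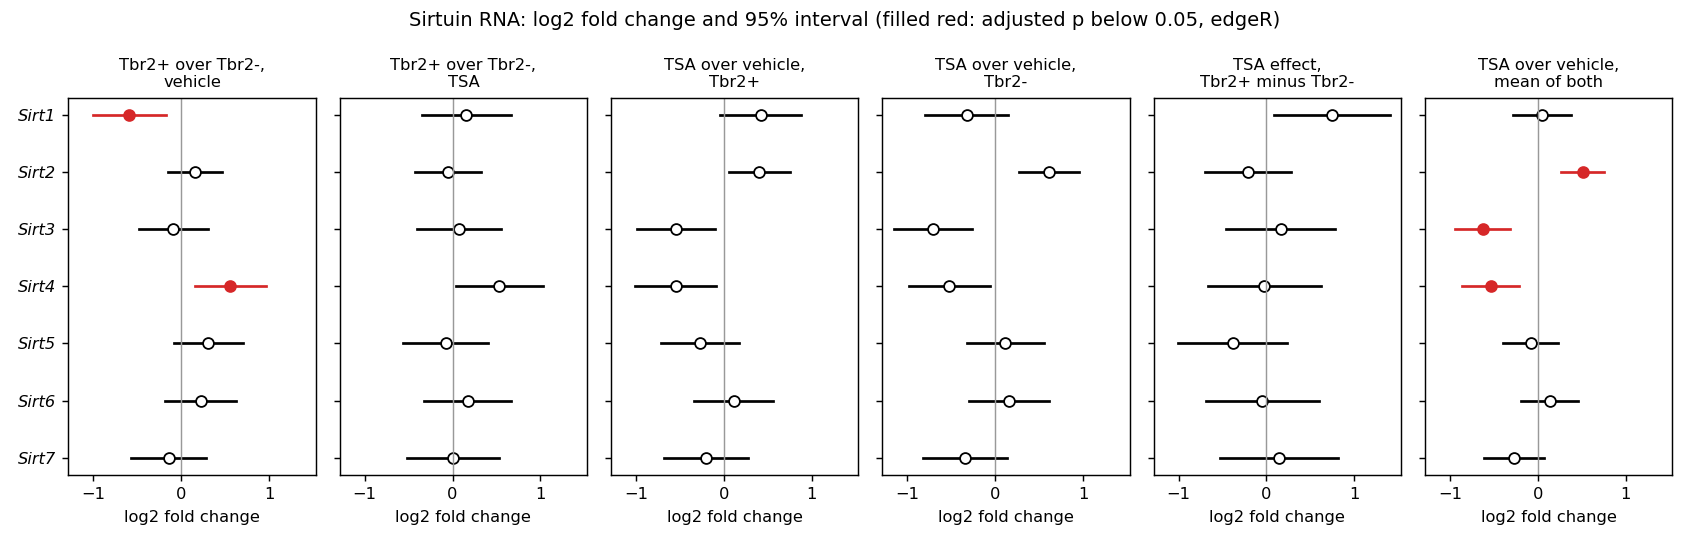
Log2 fold change (x axis) with its 95% interval for each sirtuin (rows) in 6 contrasts (panels), with filled red points where edgeR's adjusted p is below 0.05. Sirt1 and Sirt4 are filled in the vehicle comparison of populations, Sirt2, Sirt3 and Sirt4 in the mean TSA effect, and none elsewhere.

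Other genes of the pathway were counted from lists written with the members. In the vehicle comparison of populations 1 NAD synthesis gene was higher and 1 lower of 10 tested: Nmnat1, the nuclear NAD-forming enzyme, was higher in Tbr2+ nuclei by 1.22 ± 0.23 (log2, edgeR adjusted p = 0.00213), and Nmnat2, its axonal relative, had a log2 difference of -1.32 ± 0.16 (edgeR adjusted p = 0.000121). Their levels in the Tbr2+ and Tbr2- vehicle libraries were 33.4 ± 9.55 and 14.3 ± 1.46 CPM for Nmnat1, and 37.6 ± 6.52 and 93.9 ± 4.195 CPM for Nmnat2. Of 6 other NAD-using enzymes tested none was called. The median log2 difference was 0.06 over the NAD synthesis list and 0.16 over the sirtuins, beside -0.05 over all genes. Nmrk2, Qprt and Bst1 did not pass the filter on low counts.

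Of 8 regulators and neural partners, Notch1 was higher in Tbr2+ nuclei (log2 difference 1.37 ± 0.30, edgeR adjusted p = 0.00533) and Bcl6, the partner of Sirt1 named above, was lower (-1.01 ± 0.25, edgeR adjusted p = 0.0118). Bcl6 stood at 8.94 ± 2.59 CPM in Tbr2+ and 18.1 ± 1.302 CPM in Tbr2- vehicle libraries. Sirt1 was lower too, as were 11.5% of all genes, and a link between Bcl6 and Sirt1 was not tested. The other 6 genes of that list, Hes1 and Hes5 among them, were not called. Among 10 nuclear substrates Trp53 (0.94 ± 0.15) and Foxo3 (1.10 ± 0.30) were higher and Ppargc1a (-1.14 ± 0.37) lower. Among 12 mitochondrial substrates Idh2 (0.86 ± 0.18) and Sod2 (0.56 ± 0.19) were higher and none was lower. Of 11 classical deacetylases 5 were higher and 1 lower; Hdac9 was at 97.2 ± 9.17 CPM in Tbr2+ and 19.8 ± 3.04 CPM in Tbr2- vehicle libraries. In the TSA comparisons within either population none of these lists had a called gene. In the mean TSA effect the called genes were Rps19bp1, an activator of Sirt1, higher by 0.63 ± 0.15, Foxo3, higher by 0.80 ± 0.23, Sod2, the mitochondrial superoxide dismutase, higher by 0.60 ± 0.14, Sdha, a subunit of succinate dehydrogenase, at -0.47 ± 0.11, and Hdac10 at -1.18 ± 0.25.

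The genes whose log2 CPM followed each member most closely over the 10 RNA libraries are given as description; the libraries share groups and depth. For Sirt2 these were Pcbp2 (Pearson r = 0.981), Ccni (0.976) and Pin4 (0.976), and for Sirt3 Gm11722 (0.986), Ccpg1 (0.976) and Nsmf (0.973). For Sirt4 they were Lpp (0.967), Kif14 (0.962) and Rccd1 (0.961). For Sirt1 they were Fam210a (0.943), Wipf2 (0.927) and Ankrd13a (0.920), and for Sirt7 Plcd4 (0.938), 1810032O08Rik (0.937) and Tarbp2 (0.919). For Sirt6 they were Patz1 (0.926), Arhgef26 (0.907) and Surf4 (0.899), and for Sirt5 D17H6S53E (0.925), Zfp64 (0.924) and Gm43825 (0.916). Among the members, Sirt2 and Sirt3 ran opposite to each other (r = -0.878 over 10 libraries), as did Sirt1 and Sirt5 (r = -0.818).

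H3K9ac marks active promoters and is removed by enzymes that TSA inhibits. The authors' peak lists held 31823 to 82164 peaks per library, and those of Tbr2+ TSA were the shortest, at 31823 to 40053. Each group was called against 1 input library, so an effect of that input and of the group cannot be told apart. All 7 sirtuins had a peak within 1 kb of a gene end in 15 of 15 libraries, as had 54.4% of 21887 protein-coding genes. The number of members with a peak in every library of 1 group and none of the other was therefore 0 in every comparison. For Sirt4 only a peak at its outer end counted here, which cannot be assigned to it, as described below. The background was 1.06% for TSA against vehicle in Tbr2+, 0.0366% in Tbr2-, 0.521% for Tbr2+ against Tbr2- in vehicle and 1.35% under TSA. Fisher's exact test called 0 members in each comparison, at an adjusted or unadjusted p below 0.05, and could not give a p under 0.0286 for 4 libraries against 3.

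Presence was complete at each member's own start too, so it could show no difference between groups there. A peak lay within 1 kb of the tabled start in 15 of 15 libraries for every member, and every one of the 9 tabled promoter windows was touched by a peak in 15 of 15. The windows were covered to different extents: over the 15 libraries the median share of bases under a peak was 39.7% for Sirt1, 27.7% for Sirt2, 81.7% for the outer Sirt3 start, 81.0% for Sirt4, and 100% for Sirt5, both Sirt6 starts and Sirt7. At Sirt2 the peaks stood on either side of a gap. No library had a peak from -154 to -59, a stretch of 96 bases that holds the ZNF143 match at -68 to -60 shown above, while the match at 1 to 9 lay downstream of it. The start of the divergent gene Nfkbib, 108 bases from that of Sirt2, lies in the same gap. Within 250 bases of the start the lowest cover of Sirt4 was 7 of 15 libraries, first reached at -130. That of Sirt3 was 7 of 15, first at -34, and that of Sirt1 was 1 of 15, first at 204. These are the first bases with the lowest cover, read from upstream, and the length of each stretch is not given here.

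**Figure D3:**
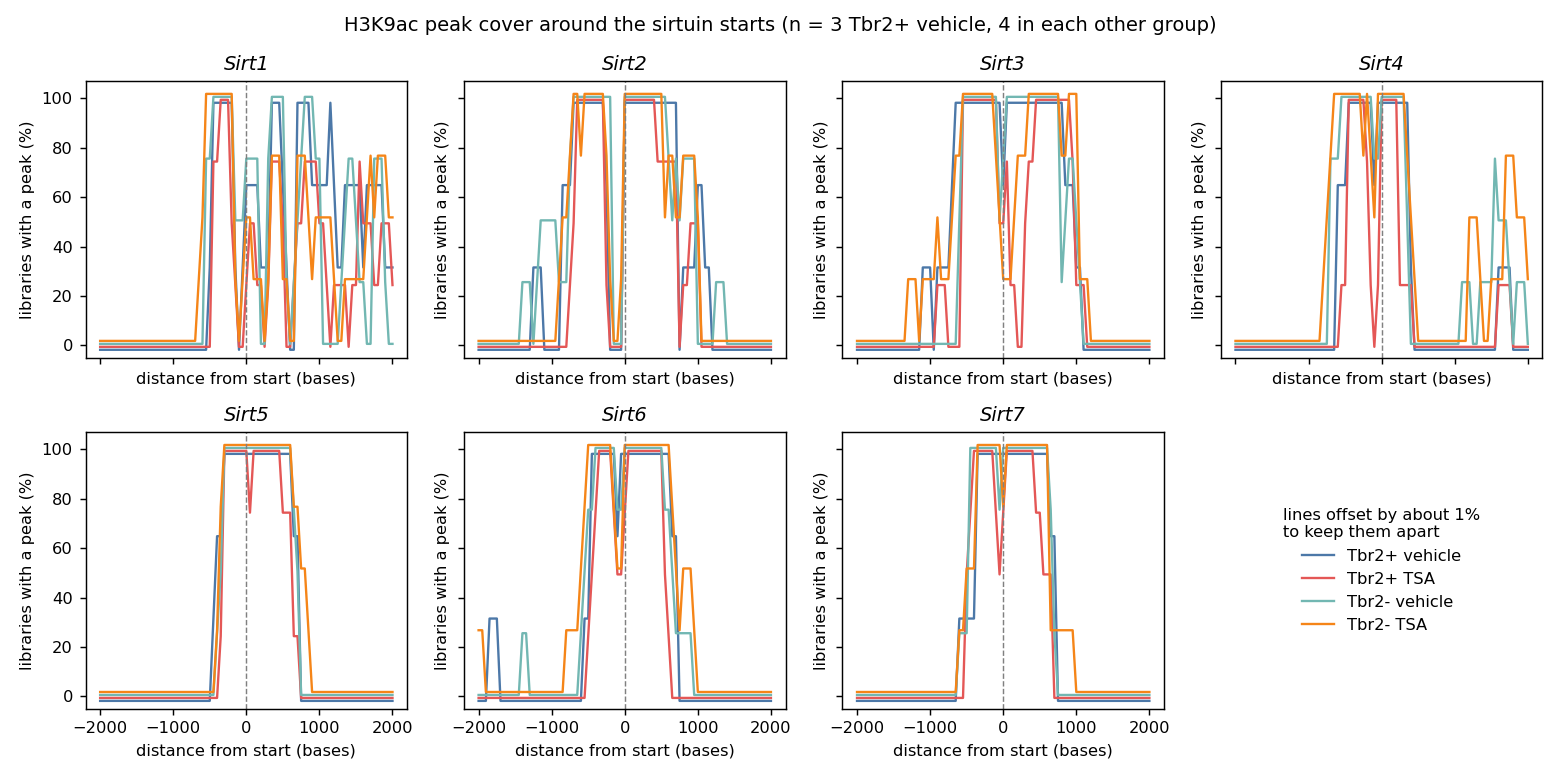
Share of libraries with an H3K9ac peak (y axis, percent) at each distance from the first tabled start (x axis, bases, transcription to the right) for each sirtuin, by group (lines, slightly offset; n = 3 for Tbr2+ vehicle, 4 for the others). All 4 groups reach every library on both sides of a gap before the Sirt2 start and none from -154 to -59, while the start of Sirt5 is under a peak in 15 of 15.

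The peaks were ranked within their own library by the authors' -log10 q, given as percentiles. Lists of different lengths show no change by rank, so the values are given side by side. The strongest peak within 1 kb of the start lay at percentiles of 52.6 to 84.8 for Sirt1 (median 72.2), 53.8 to 87.9 for Sirt7 (median 75.2), 53.8 to 91.9 for Sirt4 (median 80.1) and 70.8 to 96.6 for Sirt2 (median 86.7). It lay at 71.5 to 94.99 for Sirt3, 62.2 to 95.6 for Sirt5 and 75.4 to 94.3 for Sirt6. Its length ran from 178 to 898 bases at Sirt1 (median 386) and from 538 to 1274 bases at Sirt5 (median 1068). Separate peaks within 1 kb of the start numbered 2 to 4 in each library at Sirt1 and at Sirt2, 1 to 4 at Sirt3, and 1 or 2 at Sirt4, Sirt5, Sirt6 and Sirt7.

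**Figure D4:**
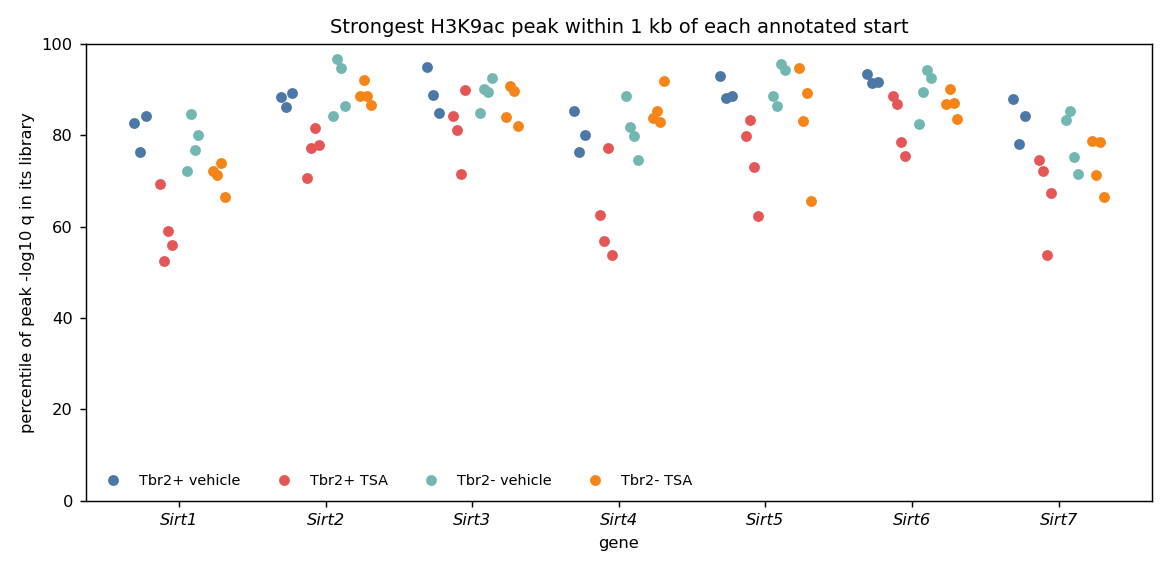
Percentile of the strongest H3K9ac peak within 1 kb of each start among the peaks of its own library (y axis, 0 to 100), by gene (x axis) and group (color), with 1 point per library. Sirt1 has points down to 52.6 and Sirt6 has none below 75.4; lists differ in length between groups, so heights are not compared across colors.

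Sirt4 needs a separate account, because its RefSeq span (chr5:115478006-115490264) reaches well beyond its tabled start. At that outer end lay a peak at the 99.9 percentile of its library or above in 15 of 15 libraries. Its summit lay 127 to 167 bases inside the span of Sirt4. The peak overlapped the small nuclear RNA gene Gm24407 in 15 of 15, though in some Tbr2+ TSA libraries only by a few bases at its edge. It overlapped another such gene, Gm24265, in 6 of 15. That peak therefore cannot be assigned to Sirt4 or to a small nuclear RNA gene. The percentiles, peak numbers and promoter cover above use the tabled start, which itself lies beside the antisense noncoding gene Gm42007. The gene-end counts and Fisher's tests above use the ends of the span. Sirt4 entered those only through the outer peak, in 15 of 15 libraries. Several other starts are shared too. Psmd13 begins 85 bases from Sirt3 and Ankrd24 29 bases from Sirt6, both on the opposite strand, and Mafg ends 103 bases upstream of Sirt7. No other gene lay within 1 kb of Sirt1 or Sirt5.

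At the downstream ends, a window looked at after the values were seen, Sirt7 had a peak in 15 of 15 libraries, near the gene Pcyt2, which lies 424 bases beyond it. Sirt2 had a peak there in 3 of 3 Tbr2+ and 3 of 4 Tbr2- vehicle libraries and in 0 of 8 TSA libraries. In Tbr2+ nuclei this was a difference of all against none, found for 0.749% of 17492 genes in that direction, and Fisher's exact test gave an unadjusted p of 0.0286 and an adjusted p of 1. Such differences were one-sided in Tbr2+ nuclei, where the TSA peak lists were the shortest. With either gene end, 231 of 21887 genes had a peak in every vehicle and no TSA library, and 1 the reverse. The part of list length in the Sirt2 peaks was not tested. The 6 peaks were weak, with -log10 q of 2.38 to 5.73 and percentiles of 13.6 to 53.1, and they lay at different places from chr7:28787700-28787879 to chr7:28789483-28789696, 4 of them inside Rinl, which begins 209 bases after Sirt2. Sirt3 and Sirt5 had a peak at that end in 1 library each, and Sirt1, Sirt4 and Sirt6 in none.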

How the data were processed

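RNA counts per gene were deposited by the authors as whole numbers, not normalized; SAMtools, MACS2 and mm10 are named per the submitters' processing notes, while for the aligner, counter and annotation: not given in the sources used here. H3K9ac peaks were called by the authors per library with MACS 2.1.0.20140616 at a q cutoff of 0.1 against 1 input per group, per the file headers. Peak strength is the deposited -log10 q; the fold enrichment and pileup signal of each peak are also as deposited by the authors, from MACS. Per the labels' protocols chromatin came from sorted fixed nuclei or whole tissue, without saying which library. Input libraries were not analysed here. The members and gene lists were chosen with earlier results of these data known. Counts were normalized by TMM and tested in 1 edgeR 4.0.16 quasi-likelihood fit of all 4 groups (R 4.3.3); DESeq2 1.42.0 was an alternative. CPM used TMM library sizes, and log2 CPM a prior count of 2. The edgeR script was tested on simulated data. Named genes were all 7 members, up to 3 called genes of each list, and the 3 most alike in log2 CPM per member. Peaks within 1 kb of a gene end were compared by Fisher's exact test in SciPy 1.17.1, 2-sided. Same-numbered libraries were tested for pairing. Those of Tbr2+ and Tbr2- correlated at 0.0806 to 0.117, and differently numbered ones of the same treatment at -0.117 to -0.0148. Whether same-numbered libraries share a source was not settled, and the main fit treated all libraries as independent. Leaving out libraries, other filters, DESeq2 and other windows were tried.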

Additional observations from a re-analysis of the deposited data

Results flagged for a closer look

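The estimates of the TSA effect on Sirt1 RNA in the populations lay 0.75 apart on the log2 scale, Tbr2+ minus Tbr2-. Every Tbr2+ TSA library lay above, and every Tbr2- TSA library below, the vehicle libraries of its population. In Tbr2+ the gap was narrow, with the lowest TSA library at 28.4 and the highest vehicle library at 27.7 CPM. TSA and vehicle libraries did not overlap, in either direction, for 33.5% of genes in Tbr2+ and 40.7% in Tbr2-. The share of genes with opposite directions in the populations was not counted. The test of the difference itself did not pass (edgeR adjusted p = 0.895), and leaving out 1 library at a time gave 0.62 to 0.92.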

How the results depend on the processing

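The count of sirtuins called between populations in vehicle, 2, was 0 without the filter on low counts, 1 with only the 2 groups compared in the fit, 1 with the nuclear noncoding RNA covariate, and 0 to 1 on leaving out 1 library. Where a TSA group lost a library, the lone one left was assumed to vary like the other groups. Under DESeq2 the TSA count in Tbr2- nuclei was 2, with 2029 genes called in all. The count for the mean TSA effect, 3, was 0 with the covariate, 0 with same-numbered libraries summed, and 0 to 3 on leaving out 1 library. The H3K9ac count for TSA in Tbr2+ nuclei was 1 with the downstream end alone. These last alternatives (mean effect, summed libraries, downstream end) were chosen after seeing the data. Estimates near 0 changed sign. With a replicate block, Sirt7 between populations under TSA was -0.0098, and with the block within treatment -0.012. With the covariate, Sirt6 was -0.010 for TSA in Tbr2+, -0.047 in Tbr2-, 0.037 for the difference of effects and -0.029 for the mean effect, and Sirt1 was -0.10 for the mean effect. On leaving out 1 library, the vehicle comparison of populations gave -0.24 to 0.038 for Sirt3 and -0.24 to 0.011 for Sirt7; that under TSA gave -0.15 to 0.10 for Sirt2, -0.015 to 0.17 for Sirt3, -0.23 to 0.17 for Sirt5 and -0.27 to 0.24 for Sirt7. TSA in Tbr2+ gave -0.0047 to 0.19 for Sirt6 and -0.50 to 0.041 for Sirt7, and TSA in Tbr2- gave -0.081 to 0.29 for Sirt5. The difference of effects gave -0.23 to 0.22 for Sirt4, -0.17 to 0.081 for Sirt6 and -0.15 to 0.38 for Sirt7, and the mean effect -0.023 to 0.14 for Sirt1 and -0.17 to 0.011 for Sirt5. The cause was not tested. Over all genes, calls for TSA in Tbr2- went from 236 to 944 without the filter, 401 with the 2 groups only, 2029 under DESeq2, 14 with the block and 0 with the covariate; those in Tbr2+ from 0 to 364, 1065 under DESeq2 and 13 with the block. The mean effect went from 2178 to 3653 under DESeq2, 696 with summed libraries and 3 with the covariate, and populations under TSA from 1871 to 3052 under DESeq2. Same-numbered Tbr2+ and Tbr2- libraries correlated at 0.0806 to 0.117, and each vehicle library correlated best with its own number in the other population. Group means were subtracted first, so values between differently numbered libraries are not independent of these. With 2 TSA libraries per population they are the same values with the sign reversed. Whether same-numbered populations share a source was thus not settled. Same-numbered TSA and vehicle libraries correlated at -0.0297 to -0.0075, which does not bear on that question. The block left 2 sirtuins called in vehicle and 3 in the mean effect. The lowest count of any member was 391.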
